A study of Mus musculus with 9 samples.

Results

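The 9 acrosome genes Acr, Acrbp, Spam1, Spaca3, Acrv1, Zpbp, Zp3r, Spaca1 and Izumo1 were followed through spermatogenesis and across 3 genotypes in single cell RNA-seq of whole mouse testis. They were taken by symbol from a named list, as 9 of the 32285 genes counted, and all 9 had counts in every library.

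Each of the 9 libraries came from 1 mouse at postnatal day 24 (PND24) on a C57BL/6 background, C57BL/6 J by the study's methods. The NELF-B cKO mice (2 mice) carried 1 null and 1 floxed allele of Nelfb, with exons 1 to 4 floxed, and the TDP-43 cKO mice (3 mice) carried 1 null and 1 floxed allele of Tardbp, with exon 3 floxed. In both, recombination was driven by Stra8-iCre, which begins to act in undifferentiated spermatogonia, so somatic cells keep the genes and some germ cells escape deletion. The control mice (4 mice) were littermates or non-littermates and are called wild type in the study. NELF-B is a subunit of the negative elongation factor that holds RNA polymerase II in promoter-proximal pausing, and TDP-43, the product of Tardbp, is an RNA and DNA binding protein.

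The acrosome is a secretory vesicle that forms from the Golgi apparatus of the round spermatid and spreads over the sperm nucleus. Its matrix holds enzymes and binding proteins that are released at fertilization, and its membranes carry proteins that hold the vesicle on the nucleus or act when the sperm meets the egg. Some acrosomal proteins are already made in spermatocytes, before the vesicle appears, while others are first made in the haploid spermatid.

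Germ cells were grouped as spermatogonia (SG), preleptotene to zygotene spermatocytes (pL to Z), pachytene spermatocytes (P SC), diplotene spermatocytes (D SC) and round spermatids (RS). Neither the 9 genes nor the other acrosome genes described further on were used to cluster the cells or to name the clusters. A unique molecular identifier (UMI) stands for 1 captured transcript. UMIs were summed per mouse and stage and are given as CPM, the UMIs of a gene per 1000000 UMIs of that sum. Barcodes with 1 to 100 UMIs hold too few to be a cell and were taken as a measure of RNA free in the suspension, here called free RNA. By an estimate from late germ cell markers in interstitial and blood cells, free RNA came to 915 to 3191 UMIs per cell. Droplets without a cell can thus hold more than 100 UMIs, and which barcodes these were was not tested. Barcodes with 1 to 100 UMIs numbered 1003974 to 1797785 per library, and each held less than this estimate. In control 1 all 1797785 of them held 3988164 UMIs together. Barcodes of over 100 and up to 1000 UMIs numbered 11511 to 73544. How well the levels in barcodes with 1 to 100 UMIs stand for the RNA of droplets without a cell was not tested.

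The libraries held from 119203347 to 159407373 UMIs, and 45132 barcodes passed the filters. The libraries of any pair of mice shared 1 to 24 cell barcodes, at most 0.355% of the smaller library. Control RS numbered 784, 286, 574 and 585, those of NELF-B cKO mice 1 and 2 numbered 367 and 12, and those of TDP-43 cKO mice 1 to 3 just 3, 39 and 82. TDP-43 cKO mouse 1, with under 10 cells in each of the P SC, D SC and RS, was left out of the reported tests of those stages. Nelfb fell in NELF-B cKO SG and early meiotic SC (log2 fold change -3.84 ± 0.15, SE) and in P SC (-3.54 ± 0.22), with adjusted p of 1.37e-05 and 8.82e-05 in edgeR's quasi-likelihood test. In RS it did not match the label: NELF-B cKO RS held 26.9 and 93.9 CPM, more than the 7.81 to 24.3 CPM of control RS. In the TDP-43 cKO mice Tardbp fell by 1.54 ± 0.17 on the log2 scale among SG and early meiotic SC (SE, adjusted p = 0.0220 in edgeR). It was not called in P SC (-0.39 ± 0.10, adjusted p = 0.352) or in D SC (-0.50 ± 0.15, adjusted p = 0.129). In RS it stood at 23.9 and 26.1 CPM against 30.8 to 39.2 CPM in controls, which was not called either (adjusted p = 0.549). How many of the cKO RS kept a working allele was not tested, and a Tardbp UMI from the 3′ end of the transcript does not report on exon 3.

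On the GENCODE annotation of mm10, Acr lies on chr15:89568326-89574585, Acrbp on chr6:125049689-125063267, Spam1 on chr6:24791188-24801048, Spaca3 on chr11:80858365-80867814, Acrv1 on chr9:36693220-36698843, Zpbp on chr11:11279626-11462408, Zp3r on chr1:130576713-130629621, Spaca1 on chr4:34024874-34050191 and Izumo1 on chr7:45621811-45628823. All 9 are protein coding. Izumo1 shares the 1336 bases of its 3′ end with Rasip1 on the same strand, and Acrbp shares 1854 bases of its 5′ end with Gm44597. Some of their reads could belong to the neighbour, above all for Izumo1, since the libraries read the 3′ end of transcripts. How many did was not tested. Acrv1 begins 30 bases from the divergent long noncoding RNA gene 1700027I24Rik, and Spaca3 begins 64 bases from the antisense gene 4930507D10Rik.

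The 120 bases before the start of 6 members are shown, because the genes split below into a group already present in P SC, to which Zpbp belongs, and a group that first appeared in quantity in RS, to which the other 5 belong. The starts and sequences are those of RefSeq on GRCm38.p6, and 15 of the Zp3r bases lie inside that gene as GENCODE annotates it. They are written 5′ to 3′ on the strand of the gene, at chr9:36693100-36693219 (Acrv1, plus strand), chr7:45621691-45621810 (Izumo1, plus), chr11:80858243-80858362 (Spaca3, plus), chr6:24791068-24791187 (Spam1, plus), chr1:130629607-130629726 (Zp3r, minus) and chr11:11462420-11462539 (Zpbp, minus). Capitals mark the letters TGACG on either strand, the core of the element bound by CREB and CREM. CREM is an activator of many spermatid genes.
Acrv1: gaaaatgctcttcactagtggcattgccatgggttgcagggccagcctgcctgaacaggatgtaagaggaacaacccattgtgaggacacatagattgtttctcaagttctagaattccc
Izumo1: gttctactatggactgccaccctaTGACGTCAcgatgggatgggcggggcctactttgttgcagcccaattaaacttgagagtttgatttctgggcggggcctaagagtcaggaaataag
Spaca3: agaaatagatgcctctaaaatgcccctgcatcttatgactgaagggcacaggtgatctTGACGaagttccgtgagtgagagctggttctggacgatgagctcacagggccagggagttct
Spam1: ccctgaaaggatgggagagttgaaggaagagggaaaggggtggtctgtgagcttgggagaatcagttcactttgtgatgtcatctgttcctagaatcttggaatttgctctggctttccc
Zp3r: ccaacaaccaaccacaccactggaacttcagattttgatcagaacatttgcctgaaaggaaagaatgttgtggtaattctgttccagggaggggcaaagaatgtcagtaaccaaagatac
Zpbp: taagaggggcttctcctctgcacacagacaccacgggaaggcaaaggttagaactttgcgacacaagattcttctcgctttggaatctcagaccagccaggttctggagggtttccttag

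Of the 9 members, 8 were matched by symbol to a promoter, all but Acr. Over the 250 bases before the start, Izumo1 was the only 1 of the 8 with the full palindrome TGACGTCA, which began 96 bases before its start. That palindrome was in 1.55% of all 32851 promoters. The core TGACG, which the palindrome holds on both strands, was found in 4 of the 8 (Acrbp, Izumo1, Spaca1 and Spaca3) and in 17.8% of all promoters. TATAAA was in 0 of the 8 and in 12.4% of all, AACNG, the core of MYB sites, in 6 of the 8 and in 74.2% of all, and GTTGCC, a part of the X-box, in 1 of the 8 (Acrbp) and in 10.4% of all. Both strands were searched. The letters TGACG occurred in members of both groups, through Acrbp alone in the group already present in P SC, and a match is not a measured binding site. For Acrbp and Spaca1 all 120 bases before the RefSeq start lie in an annotated untranslated region, so they are not shown above. Their TGACG matches, 18 bases before the start in Acrbp and 69 and 59 in Spaca1, lie in that stretch.

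The first comparison asked how each gene changed from P SC to RS in the 4 control mice. All 9 members were higher in RS than in P SC in every control, where 35.2% of all genes were. These stages are clusters of the same cells, so the differences are described and not tested. The members fell apart by the size of the difference: 3 were about 2-fold higher (Acr, Zpbp and Acrbp) and 6 were at least 32-fold higher, as 2.46% of all genes were on the scale of CPM + 1. The split at 32-fold was chosen after the values were seen.

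Acr encodes acrosin, the serine protease of the acrosomal matrix. It stood in control mice 1 to 4 at 99.2, 103, 105 and 103 CPM in P SC, at 185, 185, 175 and 177 CPM in D SC, and at 199, 208, 196 and 214 CPM in RS. The rise was in place by diplotene: the log2 ratio of D SC over P SC was 0.81 ± 0.07 (SD, n = 4) and that of RS over D SC was 0.18 ± 0.07. Acrbp encodes the protein that binds proacrosin, the precursor of acrosin. It stood at 242, 220.3, 224 and 222 CPM in P SC, at 536, 476, 478 and 494 CPM in D SC, and at 511, 439, 479 and 476 CPM in RS. It had therefore reached its level in D SC, and RS were above D SC in just 1 of the 4 mice (log2 ratio -0.06 ± 0.05). Zpbp encodes a zona pellucida binding protein of the matrix that is needed to compact the acrosome. Its level was 243, 293, 271 and 265 CPM in P SC, 439, 458, 463 and 463 CPM in D SC, and 512, 547, 509 and 564 CPM in RS, a log2 ratio of RS over P SC of 0.99 ± 0.10. Before pachytene these 3 genes were lower still, with a log2 ratio of P SC over pL to Z SC of 1.96 ± 0.26 for Acr, 2.01 ± 0.31 for Acrbp and 1.33 ± 0.12 for Zpbp.

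The other 6 members had a different course. Spam1, a hyaluronidase of the sperm surface and inner acrosomal membrane, stood at 1.12, 0.222, 0.934 and 0.557 CPM in P SC and at 140.4, 147, 143 and 162 CPM in RS, a log2 ratio of 6.48 ± 0.41. Spaca3, a lysozyme-like matrix protein, stood at 15.0, 1.68, 5.87 and 5.37 CPM in P SC and at 579.6, 500.1, 562 and 682 CPM in RS (6.46 ± 0.98). The RS values of both genes exceeded every P SC value by far more than the spread among mice. Acrv1, a matrix protein much used as an acrosome marker, rose from 8.73, 2.57, 5.83 and 3.83 CPM to 496, 434, 520.3 and 529 CPM (6.41 ± 0.57). Zp3r, a matrix protein that can bind the zona pellucida, stood at 2.91, 2.97, 2.40 and 2.13 CPM in P SC and 142, 150.4, 149 and 163 CPM in RS (5.41 ± 0.23). Both were between 10.3 and 32.5 CPM in D SC, nearer to P SC than to RS. Spaca1, a membrane protein that is needed to shape the vesicle, stood at 16.3, 4.39, 7.61 and 6.46 CPM in P SC and at 699.6, 651, 696 and 813 CPM in RS (6.34 ± 0.71). Izumo1, the membrane protein through which the sperm binds its receptor on the egg, stood at 2.02, 0.887, 1.87 and 1.21 CPM in P SC and at 144, 90.02, 132 and 148 CPM in RS (5.70 ± 0.25). Both were higher in RS than in P SC in each of the 4 controls.

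**Figure D1:**
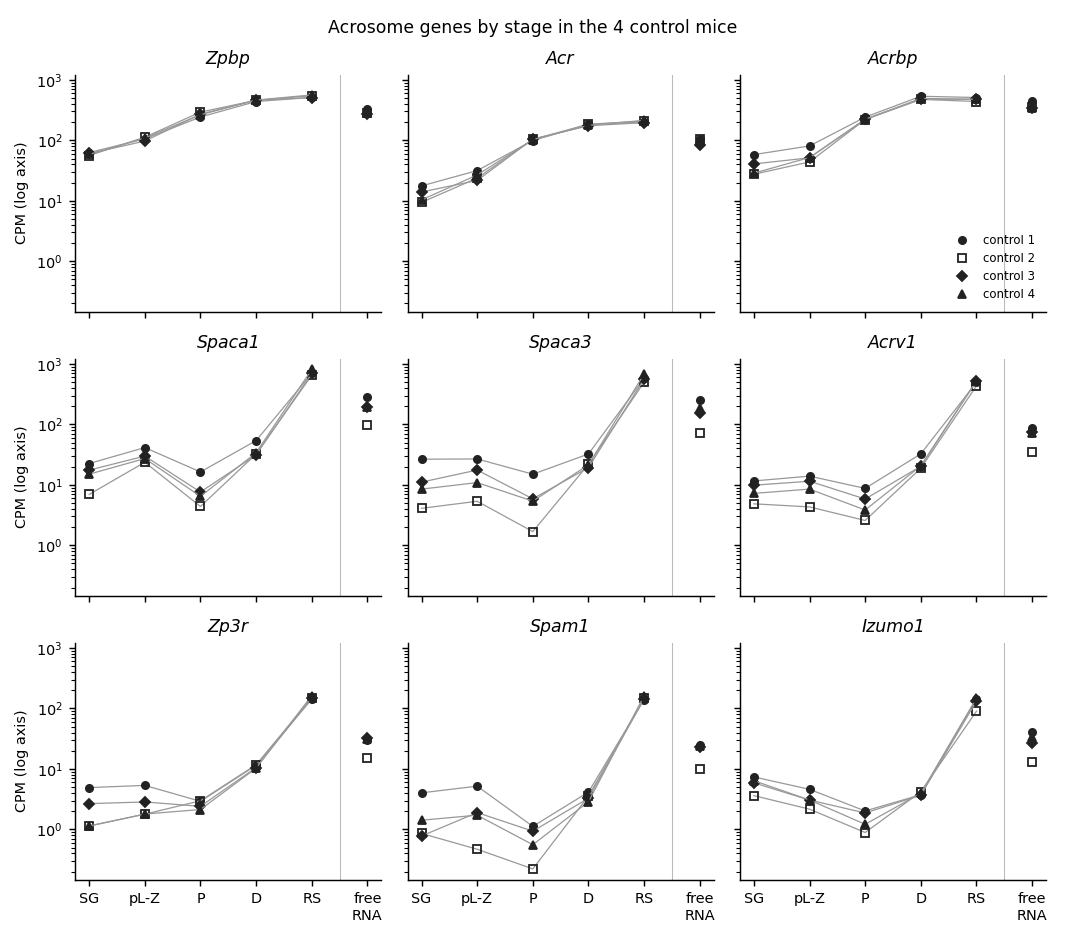
Level of each of the 9 genes (CPM, log axis) in SG, pL to Z SC, P SC, D SC, RS and free RNA of the 4 control mice, with 1 symbol per mouse and a line joining the stages of a mouse. Zpbp, Acr and Acrbp climb through meiosis and are about 2-fold higher in RS than in P SC, while the other 6 stay low up to P SC and stand between 90.02 and 813 CPM in RS.

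Free RNA was set beside these levels. In RS all 9 members were above the free RNA of the same mouse in each of the 4 controls, where 24.3% of all genes were. RS held from 115% (Acrbp in control 1) to 1482% (Spam1 in control 2) of the free RNA level, with a median of 391% over the 36 values. In P SC the median was 7.24%, since the 6 genes that rose late were below free RNA in every control, with log2 ratios of P SC over free RNA from -4.53 ± 0.39 (Spaca3) to -2.91 ± 0.60 (Zp3r). Acr and Zpbp were near it, at 0.05 ± 0.17 and -0.12 ± 0.22, and Acrbp was below it, at -0.71 ± 0.11. Sertoli cells, which do not make acrosomes, held a median of 18.7% of the free RNA level, SG 10.4% and pL to Z SC 14.7%. The CPM of the 6 late genes in P SC was below that in Sertoli cells of the same mouse in 23 of 24 values, all but Zp3r in control 2. Such values in P SC are read neither as expression nor as its absence. Control Sertoli cells had a median of 2010 to 2573 UMIs, against 47415 to 64509 in P SC, so free RNA can weigh more in their CPM. The comparison with Sertoli cells therefore cannot decide whether P SC express these genes. From pL to Z SC to P SC 5 of the 6, all but Zp3r, fell in every control mouse, with a log2 ratio of -1.81 ± 0.38 for Spaca1. In pL to Z SC of the TDP-43 cKO mice Spaca1 stood at 112, 47.4 and 56.8% of free RNA. Interstitial and blood cells of these mice held 23.8, 11.6 and 15.8%, and Sertoli cells 153, 50.4 and 53.0%. Izumo1 in their SG stood at 299, 73.0 and 73.3%, beside 34.5, 28.5 and 28.7% in Sertoli cells. Whether these genes are expressed before diplotene was not tested. Free RNA was estimated to make up 3.26 to 17.7% of the UMIs of control RS and 1.36 to 2.74% of those of control P SC. In P SC of control mice 1 to 4 this estimate was 2.74, 1.36, 2.18 and 1.51%. The 6 late genes stood there at 4.46 to 9.98, 2.23 to 19.3, 3.78 to 7.87 and 2.35 to 6.86% of the free RNA level. Each of these ranges lay above the estimate of its own mouse, and the source of the difference was not tested.

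D SC and RS were not uniform, and the clusters that made them up differed in the late genes. D SC consisted of clusters 14 and 19, and the RS with the deepest cells of clusters 18 and 27. The other RS were shallower: cluster 12 held 534, 71, 286 and 161 control cells and cluster 17 held 152, 131, 151 and 105, with medians of 2699 and 3566 UMIs over all mice. From cluster 14 to cluster 19 the 6 genes were higher by log2 ratios of 3.85 ± 0.47 (Zp3r) to 5.18 ± 0.81 (Spaca1), in 4 of 4 controls each. Acr, Acrbp and Zpbp differed by 0.31 ± 0.07, 0.22 ± 0.05 and 0.25 ± 0.12. From cluster 19 to cluster 18 the 6 were higher again by 1.73 ± 0.04 (Zp3r) to 3.405 ± 0.25 (Spam1), while the other 3 lay between -0.09 ± 0.06 (Acrbp) and 0.16 ± 0.06 (Zpbp). Cluster 19 was named D SC from its markers, but RS was its next best type and it has Ppfia2 and C730002L08Rik among its leading genes as RS cluster 17 does, so the stage of its cells is uncertain. The stage of cluster 17 is uncertain too, since its marker score was 1.17 as RS and 1.09 as D SC. Clusters are drawn from these same cells, so these ratios are descriptions.

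Cluster 27 is led by Prm2, Prm1, Tnp2 and Tnp1, which package the DNA of later spermatids, and held 25, 6, 35 and 72 control cells. Relative to cluster 18 the members moved in both directions within the RS. Izumo1 was higher by 0.89 ± 0.13 on the log2 scale, with 1.02, 0.86, 0.72 and 0.95 in the 4 mice, and Acrv1 and Spaca3 were higher in 4 of 4 as well, by 0.48 ± 0.31 and 0.32 ± 0.17. Acrbp and Zpbp were lower in 4 of 4, by -0.40 ± 0.11 and -0.49 ± 0.31. Spaca1 was higher in 3 of 4 (0.38 ± 0.31), while Spam1 (-0.25 ± 0.70), Zp3r (-0.11 ± 0.25) and Acr (-0.04 ± 0.14) had no shared direction. Without control 2, which had just 6 such cells, Izumo1 was at 0.89 ± 0.16, Acrbp at -0.40 ± 0.13 and Zpbp at -0.57 ± 0.33.

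**Figure D2:**
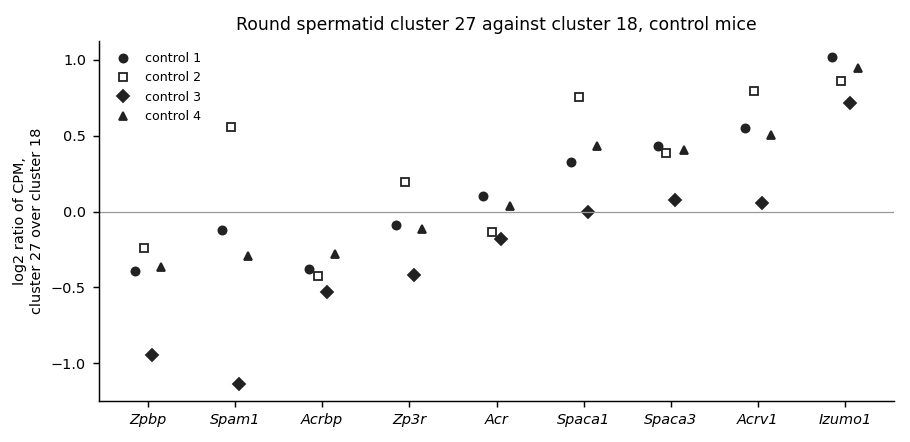
Log2 ratio of CPM in RS cluster 27 over RS cluster 18 for each of the 9 genes, with 1 symbol per control mouse and a line at 0. Izumo1 lies above 0 in all 4 mice and Zpbp and Acrbp lie below 0 in all 4, and Spam1 spreads from -1.14 to 0.56.

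The same division was seen in single cells. Cells differ in depth, with a median of 2692 to 20985 UMIs per RS, 47415 to 64509 per P SC and 2010 to 2573 per Sertoli cell in the controls, so each cell was thinned to 2000 UMIs, which left out 288 of 2229 RS, 61 of 1306 P SC and 432 of 1009 Sertoli cells as too shallow. Acrv1 was then found in 53.8 to 63.2% of control RS, in at most 0.93% of P SC and in 2.08 to 8.74% of Sertoli cells, which stand for background. Before thinning those shares were 65.6 to 84.3%, 16.5 to 35.4% and 5.19 to 10.7%. The P SC share was therefore above the Sertoli share only in the deeper, unthinned cells. Zpbp was found in 30.9 to 41.7% of thinned P SC, 53.5 to 58.8% of D SC, 58.8 to 63.0% of RS and 12.0 to 22.3% of Sertoli cells, and before thinning in 88.7 to 95.8%, 94.6 to 98.8%, 70.4 to 85.0% and 30.9 to 39.5%. For Acrbp the thinned shares of P SC (30.4 to 37.2%) and Sertoli cells (17.3 to 36.9%) overlapped. Thinning evens out depth but not the share of free RNA, which was estimated at 915 to 1444 UMIs per control cell. Sertoli cells are much shallower than P SC, so they are not a matched background for the thinned shares of P SC. A thinned RS held on average 3.24 to 4.08 of the 9 members, against 1.77 to 1.97 in D SC, 0.93 to 0.99 in P SC and 0.47 to 1.21 in Sertoli cells, and 21.3 to 43.0% of the RS held 5 or more.

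The second comparison asked whether RS of the cKO mice differed from control RS in these genes. No member did in edgeR's quasi-likelihood test: 0 of 9 were called at an adjusted p under 0.05 in NELF-B cKO (background 0.00575%), in TDP-43 cKO (background 0%) and between the 2 cKO (background 0%). None of the 27 values had an unadjusted p under 0.05 and DESeq2 called 0 of 9 in each, while 681, 1529 and 1764 of 17394 genes had an unadjusted edgeR p under 0.05. The median log2 fold change of the members was -0.16 in NELF-B cKO and -0.15 in TDP-43 cKO, beside -0.05 and -0.03 for all genes tested. The 95% intervals of the members ran from -0.83 at the lowest to 0.55 at the highest against controls, so a change of a member by more than about 2-fold lies outside every one of them. The call count was 0 in each of the 51 alternative fits, and the member changes in those fits lay between -0.86 and 0.28 against controls.

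Among the enzymes and their partners, Acr stood in control RS at 196 to 214 CPM and in the NELF-B cKO mice at 207 and 157 CPM, which is a change by -0.16 ± 0.20 on the log2 scale (SE, edgeR's adjusted p was 0.944). In TDP-43 cKO mice 2 and 3 it stood at 175 and 165 CPM, below each control, with a log2 fold change of -0.36 ± 0.19 that was not called (adjusted p = 0.600). Acrbp stood at 397 and 399 CPM in NELF-B cKO and at 369 and 438 CPM in TDP-43 cKO, also below the control range of 439 to 511 CPM, with changes of -0.36 ± 0.18 and -0.32 ± 0.18 (adjusted p of 0.935 and 0.605). Neither change of Acr or of Acrbp passed the test. Spam1 ranged more widely among the cKO mice than among controls: 115 and 180.0 CPM in NELF-B cKO and 100.2 and 179 CPM in TDP-43 cKO, on both sides of the control range of 140.4 to 162 CPM. These cKO values rest on 812, 23, 63 and 261 UMIs, against 855 to 2659 in controls, so counting error is larger in them. Spaca3 stood at 569 and 626 CPM in NELF-B cKO and 569 and 538 CPM in TDP-43 cKO, all inside the control range of 500.1 to 682 CPM.

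Among the matrix and zona binding proteins, Acrv1 stood at 516 and 665 CPM in NELF-B cKO RS and at 447 and 571 CPM in TDP-43 cKO RS, where controls ran from 434 to 529 CPM (log2 fold changes 0.10 ± 0.19 and -0.05 ± 0.18). Zpbp stood at 486 and 360.0 CPM in NELF-B cKO, below the controls (509 to 564 CPM), for a change of -0.37 ± 0.21 (adjusted p = 0.935), and at 542 and 549.6 CPM in TDP-43 cKO, within them. NELF-B cKO and TDP-43 cKO RS differed by 0.32 ± 0.24 for Zpbp, which was not called (adjusted p = 0.681). Zp3r had its highest values in cKO mice, 134 and 196 CPM in NELF-B cKO and 165 and 198 CPM in TDP-43 cKO against 142 to 163 CPM, and its change of 0.18 ± 0.17 in TDP-43 cKO was the one positive value of that contrast (adjusted p = 0.771). The 196 CPM of NELF-B cKO mouse 2 rest on 25 UMIs.

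Spaca1 and Izumo1 stayed within the control range in every cKO mouse tested. Spaca1 stood at 714 and 744 CPM in NELF-B cKO and at 749 and 703 CPM in TDP-43 cKO, against 651 to 813 CPM in controls, with changes of -0.09 ± 0.19 and -0.07 ± 0.19. Izumo1 stood at 126 and 93.9 CPM in NELF-B cKO and at 127 and 103 CPM in TDP-43 cKO, against 90.02 to 148 CPM in controls. Its value in NELF-B cKO mouse 2 rests on 12 UMIs. TDP-43 cKO mouse 1, with 3 RS, was left out of these RS tests, and its value for Acrv1 was 458 CPM.

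**Figure D3:**
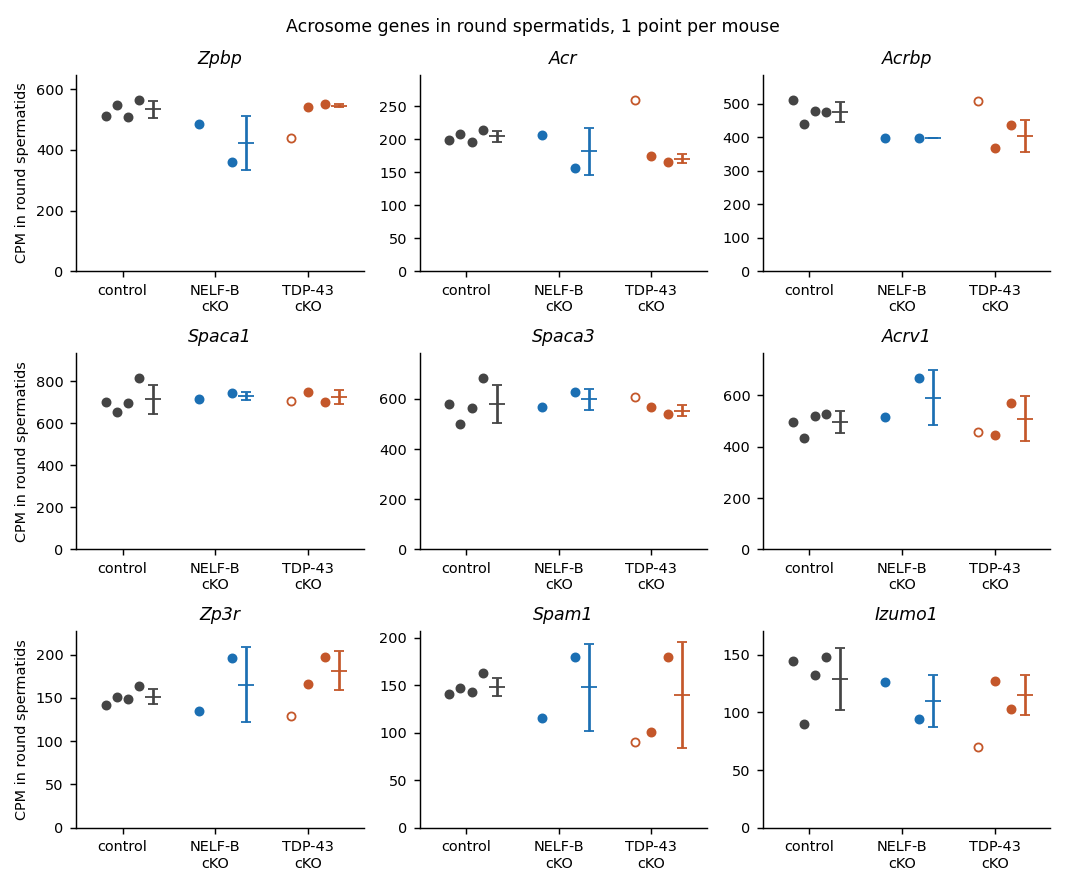
CPM of each gene in RS with 1 point per mouse and the mean with SD of each group beside the points, and TDP-43 cKO mouse 1, with 3 RS, as an open circle outside the mean. Filled points of the cKO mice lie within the control range for Spaca1, Spaca3 and Izumo1 and partly outside it for the other genes. Spaca1 stood at 703 to 749 CPM in TDP-43 cKO mice 2 and 3 against 651 to 813 CPM. Zpbp stood at 360.0 CPM in NELF-B cKO mouse 2 against 509 to 564 CPM.

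Several values differed between mice beside these sums. NELF-B cKO mouse 2 had 12 RS with 305 CPM of the Sertoli marker Clu, against 36.2 to 92.0 CPM in controls. Prm1, of later spermatids, stood in RS at 787, 16.3, 5309 and 1726 CPM in controls, at 8080 and 15.7 CPM in NELF-B cKO, and at 12.7 and 2.74 CPM in TDP-43 cKO mice 2 and 3, and no cell of cluster 27 came from those mice or from NELF-B cKO mouse 2. Control 2, which was like those cKO mice in Prm1, had the lowest RS level among the controls for 5 of the 9 members (Acrbp, Spaca3, Acrv1, Spaca1 and Izumo1). Leaving out those cKO cells in which the deleted gene was still counted reduced the RS from 367 and 12 to 266 and 8 in NELF-B cKO and from 39 and 82 to 29 and 59 in TDP-43 cKO. NELF-B cKO mouse 2, then under 10 cells, was left out of that fit, so NELF-B cKO mouse 1 stood alone with a spread taken from the other groups. The members' changes then ran from -0.66 to -0.20 in NELF-B cKO and from -0.74 to 0.17 in TDP-43 cKO, with 0 of 9 called, and their medians were -0.35 and -0.56. Without mouse 2 but with all cells of NELF-B cKO mouse 1, the median was -0.02. The part of these values in the results was not tested.

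In single RS thinned to 2000 UMIs, the number of members per cell was also similar. It was 3.72 and 3.60 in NELF-B cKO and 3.55 and 4.08 in TDP-43 cKO mice 2 and 3, beside 3.24 to 4.08 in controls. The thinned counts of the cKO mice left out 31 of 379 and 13 of 121 RS as too shallow.

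In P SC, 0 of the 8 members with enough counts (all but Spam1) were called in NELF-B cKO (background 0.620%) or in TDP-43 cKO (background 0.107%) with edgeR, and DESeq2 called 0 in both. Unadjusted p under 0.05 was reached by 0 and by 5, beside 2258 and 1060 of all 15012 genes. Without a filter on low counts 2 were called in TDP-43 cKO, Spaca3 and Spaca1, where 0.743% of genes were. Acr stood at 119 and 89.8 CPM in NELF-B cKO and 96.7 and 96.4 CPM in TDP-43 cKO against 99.2 to 105 CPM, and the changes of Acr, Acrbp and Zpbp lay between -0.10 and 0.05. The genes that had climbed by pachytene thus stood near their control level in the P SC of both cKO. The 5 with an unadjusted p under 0.05 in TDP-43 cKO were Acrv1, Izumo1, Spaca1, Spaca3 and Zp3r, all of them late genes. These lay below free RNA in control P SC, but so did Acrbp, whose unadjusted p in edgeR was 0.485.

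In D SC TDP-43 cKO mice 2 and 3 were compared with the controls. Mice with fewer than 10 such cells were left out, which left 1 NELF-B cKO mouse, and the fit with both NELF-B cKO mice is among the closing observations. Acr was the 1 of 9 members called, where 1.37% of genes were. It stood at 149.7 and 150.0 CPM against 175 to 185 CPM in controls, with no overlap, and its log2 fold change was -0.35 ± 0.07 (SE), with an adjusted p of 0.0402 in edgeR. Leaving out any 1 of the 4 controls or of the 2 TDP-43 cKO mice ended the call (adjusted p from 0.0575 to 0.154), as did subtracting free RNA (0.0564). The size of the change stayed close under these alternatives, at -0.37 to -0.32 without a mouse and at -0.34 with free RNA subtracted, but with all mice of at least 1 cell it was -0.20 (adjusted p = 0.792). Acrbp, its binding partner, stood at 449.7 and 423 CPM against 476 to 536 CPM, a change of -0.27 ± 0.07 that was not called (adjusted p = 0.0945). In the same fit the SG marker Uchl1 was called higher, by 1.91 ± 0.20 (edgeR's adjusted p 0.00215). Sycp3, Piwil1, Insl3 and Clu, markers of other cells, were not called. The part of other cells in these sums was not tested. The late genes were not called and differed between the mice: Spaca1 stood at 54.2 and 14.7 CPM, on both sides of the controls (31.3 to 53.9 CPM). The share of cluster 19, where the late genes are higher, ran with this difference: it held 29.5 and 9.71% of the D SC UMIs of mice 2 and 3, against 16.5 to 22.9% in controls. Within cluster 19 Spaca1 stood at 183 and 142 CPM, beside 153 to 202 CPM in controls. Leaving out the cKO cells in which the deleted gene was still counted took these mice from 63 and 46 to 13 and 11 D SC. It gave 5 called members, 4 higher and 1 lower, Acr not among them, where 14.1% of all genes were called in that fit. Acrv1, Spaca1 and Izumo1 then turned upward, by 1.69, 1.53 and 1.89 on the log2 scale (edgeR's adjusted p 0.00919, 0.00378 and 0.0218). Cluster 19 then held 75.3 and 61.7% of the D SC UMIs of the 2 mice, and the part of the cluster mix in these changes was not tested.

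In SG and early meiotic SC, 8 of 9 members were lower in TDP-43 cKO, all but Izumo1, where 13.3% of genes were lower (edgeR, adjusted p under 0.05). Markers of later stages were called lower in the same fit: Piwil1 at -2.38, Tnp2 at -7.05 and Prm2 at -8.20 on the log2 scale. Tnp1 and Prm1 were not called, and the SG marker Uchl1 was called higher, at 0.63. Acr stood at 0.726, 4.16 and 3.39 CPM against 16.6 to 26.0 CPM in controls, and Acrv1 at 0.351, 1.38 and 1.88 CPM against at least 4.58 CPM in each control, with no overlap for either. These cells held a small share of the free RNA level in controls, and the free RNA of the same TDP-43 cKO mice was lower in all 9 genes. After free RNA was subtracted 3 of the 8 calls were left, where 4.66% of genes were lower. Leaving out control 1, control 4 or any TDP-43 cKO mouse left 0 calls, and leaving out control 3 left 5 (5.41% of genes were lower). In NELF-B cKO 0 of 9 were called (background 0.0148%), 2 had an unadjusted p under 0.05, as 21.6% of all genes did, and DESeq2 called 1, Zpbp, where it called 11.2% of all genes.

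The third comparison set free RNA and whole libraries beside the sums of cells. In free RNA all 9 members fell in TDP-43 cKO (edgeR), where 26.3% of all genes did, with log2 fold changes from -4.34 ± 1.05 (Spam1, adjusted p = 0.0143) to -2.45 ± 0.65 (Zpbp, adjusted p = 0.0174), while the median of all genes was 0.13. All 3 TDP-43 cKO mice were below every control for 9 of 9 members, as for 19.2% of genes. In these sums over a whole tissue, fewer spermatocytes or spermatids and less RNA per cell cannot be told apart. P SC numbered 178 to 504 in control mice and 4 to 126 in TDP-43 cKO mice, and D SC 129 to 429 and 3 to 63. Markers of other cells were called higher in the same fit, Insl3 of Leydig cells by 3.36 ± 1.04 and Uchl1 of SG by 1.61 ± 0.31. The spermatid genes Tnp1, Tnp2, Prm1 and Prm2 were called lower. In whole libraries all of these genes were called in the same direction. Acrv1 stood in free RNA at 87.5, 34.6, 74.0 and 71.7 CPM in the controls and at 1.06, 10.2 and 14.1 CPM in TDP-43 cKO. Spaca1 stood at 281, 97.0, 197 and 197 CPM in controls and at 9.86, 35.2 and 34.7 CPM in TDP-43 cKO. Zpbp, one of the genes present from pachytene on, stood at 330.0, 284, 269 and 286 CPM and at 17.6, 89.4 and 108 CPM. Between 7 and 9 members were called with any 1 mouse left out. With barcodes of 11 to 100 UMIs 5 of the 6 members with enough counts were lower, where 24.1% of genes were. With barcodes of over 100 and up to 1000 UMIs in place of free RNA, an alternative added once the data were known, 0 members were called, as were 0% of genes. The calls in free RNA therefore hold for barcodes of up to 100 UMIs only. Which set of barcodes is the better measure of RNA free in the suspension was not tested. A stricter call, an adjusted p under 0.01 with at least 1 log2 unit of change, gave 0 members and 0% of genes in free RNA and in whole libraries.

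The NELF-B cKO mice parted in free RNA. Mouse 1 held 66.6 to 98.5% of the control mean of each member and mouse 2 held 1.65 to 20.4%: Acrv1, for example, was at 52.7 CPM in mouse 1 and 1.11 CPM in mouse 2. Across both, 0 of 9 members were called in edgeR (background 0%), and DESeq2 called 0. In edgeR 0 members had an unadjusted p under 0.05, where 15.8% of all genes did. Without NELF-B cKO mouse 1, with the spread of the lone mouse taken from the other groups, 8 of 9 were lower, where 19.1% of all genes were. The number of RS, 367 in mouse 1 and 12 in mouse 2, differed in the same direction, and its part in the difference was not tested.

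Whole libraries were compared in the same way. All 9 members fell in TDP-43 cKO, where 27.4% of all genes did, by log2 fold changes from -3.99 ± 1.21 (Spaca3, adjusted p = 0.0320) to -2.34 ± 0.67 (Zpbp, adjusted p = 0.0298), and all 3 mice lay below every control for each of the 9, where 25.7% of genes did so. Leaving out control 1, 3 or 4, or TDP-43 cKO mouse 1 or 3, left 0 of these calls, leaving out TDP-43 cKO mouse 2 left 1 (7.79% of genes were lower) and leaving out control 2 left 6 (18.4%). Acr stood at 102, 97.9, 90.0 and 98.3 CPM in the controls, at 100.6 and 11.9 CPM in NELF-B cKO and at 1.59, 25.5 and 20.5 CPM in TDP-43 cKO. Of the control mean of each member, the library of NELF-B cKO mouse 1 held 66.4 to 103.7% and that of mouse 2 held 3.35 to 14.5%. A value of RS and a value of the library thus went apart in the same mouse: Spaca1 in TDP-43 cKO mouse 2 was 749 CPM in RS and 24.4 CPM in the library.

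**Figure D4:**
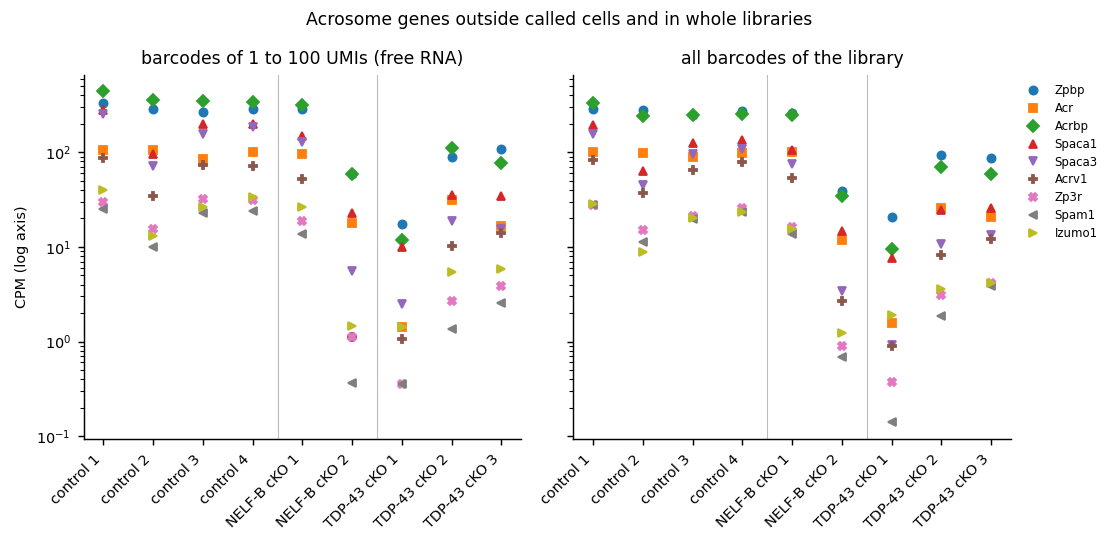
CPM (log axis) of each of the 9 genes in free RNA (left) and in all barcodes of the library (right), with 1 column per mouse and 1 symbol per gene. The controls and NELF-B cKO mouse 1 stand together and the 3 TDP-43 cKO mice and NELF-B cKO mouse 2 stand below them, for example 1.06 to 14.1 CPM of Acrv1 in TDP-43 cKO free RNA against 34.6 to 87.5 CPM.

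**Figure D5:**
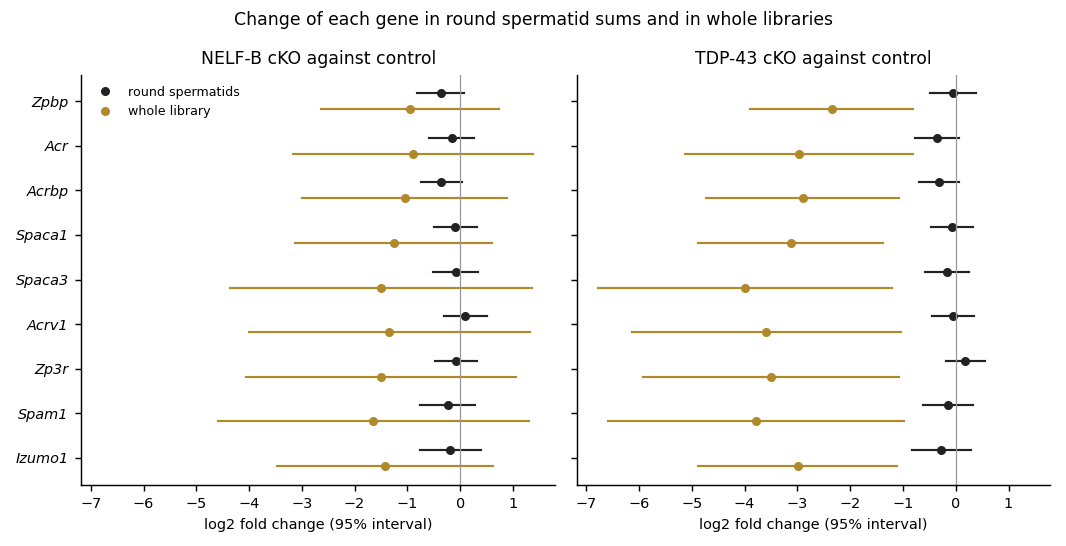
Log2 fold change with its 95% interval for each gene in RS (black) and in the whole library (ochre), for NELF-B cKO (left) and TDP-43 cKO (right) against control. In RS every interval crosses 0, and in whole libraries of TDP-43 cKO every interval lies below 0, with estimates from -3.99 to -2.34.

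Where the UMIs of a member lay in the library also followed the split. Barcodes of RS held 16.4 to 70.6% of the library's UMIs of each of the 6 late genes in the controls, but 7.04 to 22.4% of those of Acr, Acrbp and Zpbp. D SC held 8.63 to 44.0% of the UMIs of these 3 and 0.745 to 17.3% of those of the late genes. Free RNA held 1.94 to 4.81% of the UMIs of any member, and barcodes of over 100 and up to 1000 UMIs held 4.61 to 50.4%.

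A wider list of 43 acrosome genes showed both courses. From P SC to RS, 35 of the 43 were higher and 7 lower in every control, where 35.2% of all genes were higher, and 21 were at least 32-fold higher. All 11 enzymes and matrix proteins were higher, 7 of them at least 32-fold, such as Spaca7 (mean 4.72 CPM in P SC and 496 CPM in RS) and the lysozyme-like Lyzl4 (2.62 and 306 CPM). Of 17 membrane, adhesion and fusion genes 15 were higher and 2 lower: Llcfc1, needed for fusion with the egg, stood at 3.65 and 440.3 CPM, whereas Tex101, which acts in the maturation of sperm surface proteins, stood at 932 and 118 CPM. The 15 genes of biogenesis and attachment were the most mixed, with 9 higher and 5 lower. Cylc2, of the cytoskeleton under the acrosome, stood at 2.71 and 531 CPM, and Gopc, a Golgi protein needed to form the vesicle, at 58.7 and 6.93 CPM. In RS 0 of the 43 were called in NELF-B cKO, in TDP-43 cKO or between the cKO with edgeR, with 4, 4 and 5 at an unadjusted p under 0.05, beside 3.92, 8.79 and 10.1% of all genes. Tex101 was at -1.44 ± 0.29 in NELF-B cKO (adjusted p = 0.585) and Prss55, a serine protease, at -2.95 ± 0.89 in TDP-43 cKO (adjusted p = 0.534). In TDP-43 cKO free RNA and whole libraries 36 and 38 of the 43 fell, beside the 26.3% and 27.4% of all genes.

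The genes most like each member were those with the highest Pearson correlation of log2(CPM + 1) over the 20 sums of 4 controls and 5 stages, among 8160 genes, given without a test since the sums share their mice. For Acr they were Lypd4 (r = 0.998) and Odf2, and for Acrbp 1700018F24Rik and Dnajb3. Zpbp had Amn1 (0.995) and Ribc2. Among the late genes, Acrv1 had Tssk4 (0.998) and Spaca7, Spaca3 had 1700011L22Rik (0.998) and Tex48, Zp3r had 4930405A10Rik (0.996) and Il31, Spaca1 had 3830417A13Rik (0.992) and Ccdc63, and Izumo1 had Fam187b (0.993) and Stambpl1. Spam1 had 4921509A06Rik and, at the top, 4930507D10Rik (0.997), the antisense gene that begins 64 bases from Spaca3.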

How the data were processed

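The authors sequenced 1 droplet 3′ library per mouse and made the matrices with Cell Ranger on mm10. Version 6.1.1 served for demultiplexing and version 7.0.0 for mapping. The deposited values are raw UMI counts per gene and barcode, before any choice of cells, and were used as deposited. A barcode counted as a cell when it held more than 1000 genes and less than 10% of its UMIs were mitochondrial, and a gene had to be found in more than 15 cells. Cells were joined by 20 nearest neighbours on 40 principal components of the 3000 most variable genes, without the acrosome genes. This graph was split into 35 clusters (leidenalg 0.10.2, resolution 0.8), of which 26 were named from marker genes. No doublet caller was run. Clusters whose cells had a median under 2000 UMIs were left unnamed, and an alternative added those that scored as RS.

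UMIs were summed per mouse and stage and tested with edgeR 4.0.16 in R 4.3.3 (filterByExpr, TMM, glmQLFit and glmQLFTest with 3 groups, two-sided, Benjamini-Hochberg adjustment over all genes tested, called at an adjusted p under 0.05), with DESeq2 1.42.0 as an alternative. Mice with fewer than 10 cells of a stage were left out of its fit. The fold changes are per stage sum, so they carry no information on cell number. The tests were also run on simulated counts, whose outcome is not given here. Cells in which a cKO mouse still had a UMI of the deleted gene were kept, and left out in an alternative. Depth ran from 119203347 to 159407373 UMIs per library, and intervals of shares cover counting error only.

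All 9 members are described. The wider list is given by counts, and the genes named from it are among the 2 with the lowest and the 2 with the highest log2 ratio or fold change of their role in that comparison. The genes most like a member were taken from those with at least 50 CPM in 1 of the control sums. The members and lists were chosen with earlier results of these data known. Promoters came from RefSeq (GRCm38.p6) and gene positions from GENCODE. Replicates are separate mice.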

Additional observations from a re-analysis of the deposited data

Results flagged for a closer look

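Dixon's test was run on the 4 control mice for 54 combinations of a member and a sum, and 7 had a mouse that stood apart at the 95% level, where chance alone gives about 1 in 20. In 5 of the 7 that mouse was control 1, which was high. Acrbp stood at 242 CPM in P SC of control 1 (220.3 to 224 CPM in the others), at 444 CPM in its free RNA (345 to 358 CPM) and at 332 CPM in its whole library (245 to 257 CPM). In D SC of control 1, Acrv1 stood at 32.5 CPM (18.8 to 20.6 CPM in the others) and Spaca1 at 53.9 CPM (31.3 to 33.9 CPM). The other 2 were low values in the free RNA of control 2: Spam1 at 9.93 CPM (22.9 to 25.1 CPM in the others) and Zp3r at 15.4 CPM (29.6 to 32.02 CPM). None of the 7 was a value of RS. Free RNA was estimated at 17.7% of the RS UMIs in control 1 and at 4.21% in control 2, and its part in these values was not tested.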

How the results depend on the processing

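Of 207 counts of calls recomputed under alternatives, 171 stayed within 1.5 times the count reported and 36 moved. In RS the count of called members was 0 in all 51. Without any 1 mouse the count ranged from 0 to 8 in SG and early meiotic SC and from 0 to 1 in D SC of TDP-43 cKO, from 0 to 8 in free RNA and in whole libraries of NELF-B cKO, and in TDP-43 cKO from 7 to 9 in free RNA and from 0 to 9 in whole libraries. Where 1 mouse was left in a group, its spread was taken from the other groups. A stricter call (adjusted p under 0.01 with at least 1 log2 unit of change) gave 0 for TDP-43 cKO in SG and early meiotic SC, D SC, free RNA and whole libraries. Subtracting free RNA gave, for TDP-43 cKO, 3 in SG and early meiotic SC and 0 in D SC. All mice with at least 1 cell gave 0 in D SC. DESeq2 gave 1 in NELF-B cKO SG and early meiotic SC (11.2% of all genes), and no filter on low counts gave 2 in P SC of TDP-43 cKO, Spaca3 and Spaca1 (0.743%). Free RNA from barcodes of 11 to 100 UMIs gave 5 of 6 tested for TDP-43 cKO (24.1% of genes lower), and from those of over 100 and up to 1000 UMIs gave 0. Leaving out the cKO cells that still held a UMI of the deleted gene, which took the D SC of TDP-43 cKO mice 2 and 3 from 63 and 46 to 13 and 11 and the share of cluster 19 in their UMIs from 29.5 and 9.71% to 75.3 and 61.7%, gave 5 called in D SC and turned 3 log2 changes upward: Acrv1 to 1.69, Spaca1 to 1.53 and Izumo1 to 1.89 (edgeR's adjusted p 0.00919, 0.00378 and 0.0218). The causes were not tested. Of 1686 changes of single members recomputed, 1396 kept their direction and side of the threshold, 78 that were called in neither fit changed sign, 188 lost and 21 gained a call, and 3 reversed with a call.

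The labels number the mice of each group. With a replicate block, 0 members were called for TDP-43 cKO in SG and early meiotic SC, D SC, free RNA and whole libraries, and the other counts stayed at 0. Deviations of same-numbered mice correlated at 0.357 to 0.533 between control and NELF-B cKO, at -0.222 to -0.00144 between control and TDP-43 cKO and at -0.724 to -0.311 between the cKO groups (whole libraries, free RNA, and SG and early meiotic SC), so not every pair was above 0.1 and the numbers were not taken to pair the mice. With 2 NELF-B cKO and 2 TDP-43 cKO mice in the RS fit and as few as 12 RS in 1 of them, differences inside the intervals given could not be detected.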

Other observations

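In D SC the reported comparison left out NELF-B cKO, since mouse 2 had 9 such cells and 1 mouse remained. In NELF-B cKO mouse 1 Acr stood at 175 CPM and Spaca1 at 33.03 CPM, near the controls, while Acrbp, at 437 CPM, was below every control. Mouse 2 held 188, 428 and 7.97 CPM of Acr, Acrbp and Spaca1, and its Acrbp was below every control as well. With both mice in the fit, log2 fold changes ran from -0.73 ± 0.38 (Spaca3) to -0.02 ± 0.15 (Acr), and 0 of 9 were called in edgeR, where 0.535% of genes were.

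TDP-43 cKO mouse 1 was left out of the reported tests of P SC, D SC and RS. Its 3 RS held 259 CPM of Acr, 508 CPM of Acrbp, 608 CPM of Spaca3 and 707 CPM of Spaca1, while its whole library held 1.59, 9.42, 0.913 and 7.66 CPM of the same genes. Of the 9 libraries it had the lowest whole-library level of 8 members, all but Izumo1, at 1.93 CPM against 1.22 CPM in NELF-B cKO mouse 2.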
